A study of Mus musculus with 27 samples.

Results

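Livers of 6 mice taken 6 days after weaning (ID6) were set against livers of 4 mice taken 4 days after weaning (ID4), which are 10 of the 27 bulk RNA sequencing libraries in a series on the mouse liver over a reproductive cycle. The libraries were chosen by the stage in their titles, and no measured value entered the choice. The question was how liver metabolism and inflammation turned between the middle and the late part of involution, the period after weaning. All 10 animals were wild-type BALB/c mice, an inbred strain, and had been mated at an age of 10 to 12 weeks. Litters had been evened in size, and pups were removed after 10 to 14 days of lactation, so the length of lactation varied within this span. The groups shared strain, mating, lactation and weaning and differed in the day of collection. They also differed in the range of title numbers and in sequencing runs, given below. Livers were frozen and pulverised whole, so hepatocytes and all other liver cells entered each library. The hour of collection, the state of feeding and any pooling of livers are not given in the sources used here, and each title number was taken to be 1 animal. Levels in 4 nulliparous mice (NUL), which had not been pregnant, are given as a reference.

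The liver of a rodent grows during pregnancy and lactation and regresses after the pups are removed. Hepatocytes make fatty acids from acetyl-CoA through acetyl-CoA carboxylase, fatty acid synthase and stearoyl-CoA desaturase, a route driven in the fed state by the transcription factors SREBP-1c and ChREBP. In fasting the balance shifts to fatty acid oxidation, ketone bodies and glucose made from amino acids, in which PPAR alpha takes part. Acute phase proteins are secreted by hepatocytes when interleukin-6, acting through STAT3, and interleukin-1 reach the liver.

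Estimated read counts totalled 60984100 to 71340100 in the ID4 libraries and 65089700 to 75664500 in the ID6 libraries. The hepatocyte marker albumin took 6.82% to 8% of counts at ID4 and 8.12% to 11.9% at ID6, and none of the 11 tested hepatocyte identity genes was called by edgeR (0 at an unadjusted p under 0.05) or DESeq2, and 1 was higher on log2(TPM + 1). Of 16428 genes tested, 1401 (8.53%) were called at an adjusted p under 0.05 by edgeR's quasi-likelihood test, 639 (3.89%) higher and 762 (4.64%) lower at ID6. All counts of called list members below stand against these shares. On log2(TPM + 1), a length-scaled unit, 82.2% of the calls were higher, against 45.6% on counts. The log2 scale of TPM + 0.1 gave 82.5% and raised the median over all genes from 0.01 to 0.13. Both TPM fits used limma in place of edgeR and, unlike the count fits, no scaling between libraries beyond TPM itself. The effective length offset in edgeR, which kept such scaling, gave 42.8%. Which of these differences moved the share was not tested. CPM, a gene's count scaled to equal library totals, did not overlap between the 4 and the 6 libraries for 1356 genes (8.25%), with ID6 on the higher side for 3.93% of all genes and on the lower side for 4.32%. Title numbers lay under 200 for ID4_13 and ID4_15 and at 200 or over for the other 8 animals, a split that the labels do not explain. With this number range as a covariate 669 genes were called, and with animals numbered 200 and over only, which leaves 2 at ID4, 278 were called. Without ID4_13 the count was 738, without ID4_215 it was 870 and without ID6_209 it was 853. Of the 105 called genes that were named by rule or for the text, 52 lost their call with the covariate and 75 with animals numbered 200 and over only. Of the genes called, 616 were also called with the covariate and 262 with animals numbered 200 and over only. ID6_218 and ID6_232 were sequenced in 1 run, and the other ID4 and ID6 libraries in 2. The alternative with libraries sequenced in 2 runs only thus left these ID6 libraries out and kept all 4 ID4 libraries.

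**Figure D1:**
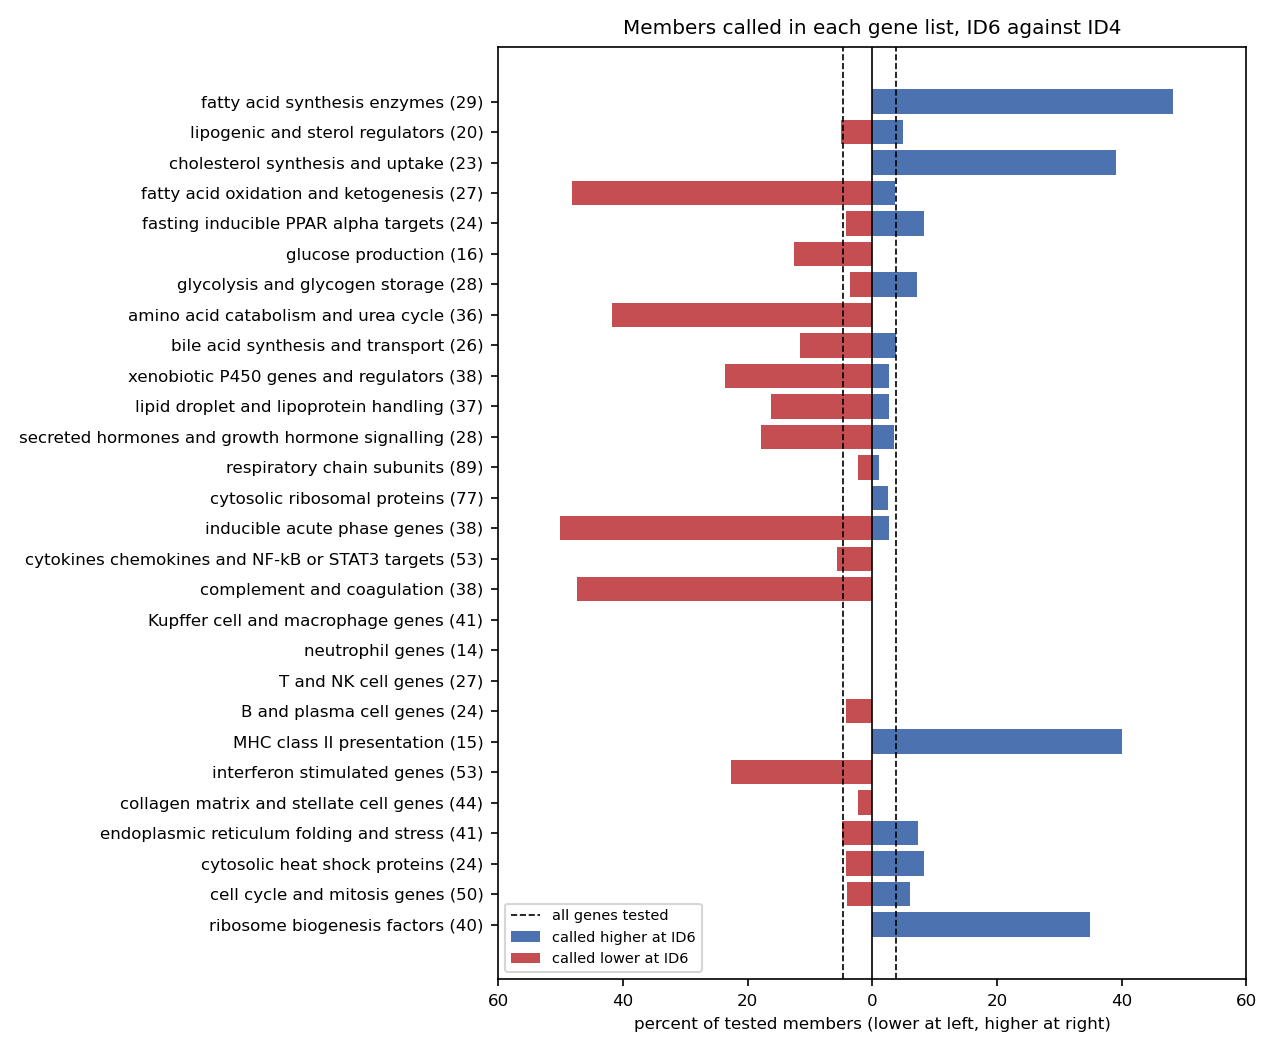
Percent of the tested members of each gene list that were called higher (right) or lower (left) at ID6 against ID4, with the number of tested members in parentheses and dashed lines at the shares over all genes tested, 3.89% higher and 4.64% lower. Fatty acid and cholesterol synthesis, MHC class II and ribosome biogenesis lie to the right, and acute phase, complement, fatty acid oxidation and amino acid catabolism mostly to the left.

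Enzymes of fatty acid synthesis rose in part from ID4 to ID6. Of 30 listed genes 29 were tested, 14 rose, none fell and 15 were not called, with a median log2 fold change of 0.64 against 0.01 over all genes. The summed CPM of the list was 3800 to 4297 at ID4 and 7199 to 16344 at ID6, and the 2 ranges did not overlap. In the nulliparous mice it was 7343 to 9742. The lowest ID6 library thus lay just below the lowest nulliparous one and the highest far above. Scd1 alone gave 172 to 272 of this sum at ID4, 2865 to 9926 at ID6 and 2538 to 4134 in nulliparous mice. Much of the rise in the sum therefore came from 1 gene. Calls numbered 7 without ID4_13, 8 without ID4_215, 6 with the number range as a covariate and 3 with animals numbered 200 and over only. Adipose tissue, another site of fat synthesis, left few transcripts of its defining genes: Adipoq, which encodes adiponectin, had 0.0474 to 0.826 CPM at ID4 and 0.0417 to 2.11 at ID6. The 6 tested adipose genes all had positive log2 fold changes, with a median of 1.25, and none was called by edgeR (1 at an unadjusted p under 0.05) or DESeq2, while 1 was called with the covariate. Their summed CPM of 288 to 575 at ID4 and 433 to 737 at ID6 overlapped and came mostly from Car3, at 288 to 574 and 432 to 734. The part of adipose transcripts in the list's rise was not tested.

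The gene that rose most was Scd1 (chr19:44394455-44407879, GRCm38), whose product, stearoyl-CoA desaturase, makes monounsaturated from saturated fatty acids. Its CPM in ID4_13, ID4_15, ID4_211 and ID4_215 was 184, 219, 272 and 172. At ID6 the lowest value was 2865, the median 6044 and the highest 9926. Every ID6 library was therefore more than 10 times as high as every ID4 library. The means were 212 ± 45.1 (SD, n = 4) and 5914 ± 2752 (n = 6), against 3135 ± 713 in nulliparous mice (n = 4). The log2 fold change was 4.80 (standard error 0.43, edgeR adjusted p = 4.44e-06), and the call held in each of the 10 fits without 1 animal.

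Fatty acid synthase, Fasn (chr11:120805846-120824547), which builds palmitate, stood at 93.8, 96.7, 107 and 85.9 CPM in the ID4 libraries in the same order. At ID6 it ran from 202 through a median of 287 to 730.4. The highest value belonged to ID6_230, and no ID6 value reached down to the ID4 range. The log2 fold change of Fasn was 1.86 (standard error 0.47, edgeR adjusted p = 0.0185), with an adjusted p of 0.0572 without ID4_13 and 0.0557 without ID4_215. Nulliparous mice had 352 ± 99.5 CPM (SD, n = 4), close to the ID6 mean of 348 ± 193 (n = 6).

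Both acetyl-CoA carboxylases rose. Acacb, the form tied to mitochondria whose product malonyl-CoA restrains fatty acid entry, had 33.3, 14.96, 29.2 and 35.2 CPM at ID4 and 45.1 to 132 (median 76.8) at ID6. Its log2 fold change was 1.47 (standard error 0.38, edgeR adjusted p = 0.0196), and without ID4_15, its lowest library, the adjusted p was 0.0644. The cytosolic form, Acaca, rose by 1.20 on the log2 scale (edgeR adjusted p = 0.0164). For Acaca the adjusted p was 0.0533 without ID4_13 and 0.0513 without ID4_215.

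Acss2, which makes acetyl-CoA from acetate, had 62.4, 51.2, 73.6 and 55.2 CPM at ID4 and 104 to 283 (median 173) at ID6. The groups were separate, and the log2 fold change of Acss2 was 1.49 (standard error 0.36, edgeR adjusted p = 0.0148). Acsl3, an acyl-CoA synthetase, held a narrow range in both groups, 5.50 to 8.73 CPM at ID4 and 18.0 to 21.1 at ID6, and rose by 1.40 (standard error 0.21, edgeR adjusted p = 0.000441). Me1, the malic enzyme that supplies NADPH, rose by 0.87 (edgeR adjusted p = 0.018, and 0.0613 without ID4_13). Acly, which splits citrate to acetyl-CoA, was not called (log2 fold change 0.64, edgeR adjusted p = 0.33), although its CPM of 144 to 177 at ID4 and 182 to 367 at ID6 did not overlap. Acly was called with the ID4 and ID6 libraries alone (0.0482).

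Pnpla3, a lipid droplet protein, rose from 0.684, 0.958, 1.17 and 0.994 CPM at ID4 to between 4.13 and 21.4 (median 9.87) at ID6. Its log2 fold change was 3.46 (standard error 0.88, edgeR adjusted p = 0.0192), and the adjusted p was 0.0663 without ID4_13 and 0.0534 without ID4_215. Elovl6, which lengthens palmitate, lay between 26.6 and 29.2 CPM at ID4 and between 44.4 and 216.4 (median 85.6) at ID6. The ID4 libraries were close together and the ID6 libraries were spread, with ID6_230 on top. Elovl6 had a log2 fold change of 1.79 (standard error 0.50, edgeR adjusted p = 0.0303). Its call was lost without any of the 4 ID4 libraries (adjusted p 0.0848 without ID4_13, 0.0683 without ID4_15, 0.0763 without ID4_211 and 0.0737 without ID4_215), without ID6_209 (0.0509) and without ID6_230 (0.0753).

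Single genes of carbohydrate and lipid handling rose too. Pklr, liver pyruvate kinase, had 149.5, 122, 133 and 159 CPM at ID4 and 218.2 to 443 (median 314) at ID6, and rose by 1.16 on the log2 scale (standard error 0.25, edgeR adjusted p = 0.00528). Hcn3, an ion channel gene that overlaps Pklr on the opposite strand (89146074 to 89160196 against 89136142 to 89146784 on chromosome 3), rose by 1.53 (edgeR adjusted p = 0.00766). The counts of both genes were not whole in 10 of 10 libraries, so reads were shared between genes and the reads of this pair may not be told apart. Fabp5, a fatty acid binding protein, had 33.9, 34.2, 30.3 and 27.96 CPM at ID4 and 55.9 to 165 (median 113) at ID6. Its log2 fold change was 1.80 (standard error 0.35, edgeR adjusted p = 0.00381), with shared reads in 10 of 10 libraries as well. Their lists did not share this direction. Of 28 genes of glycolysis and glycogen storage 2 rose and 1 fell (10.7% called, against 8.53% over all genes). Of 37 genes listed under lipid droplets and lipoproteins Fabp5 alone rose and 6 fell (18.9% called). Pnpla3 was counted in the list of fatty acid synthesis.

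**Figure D2:**
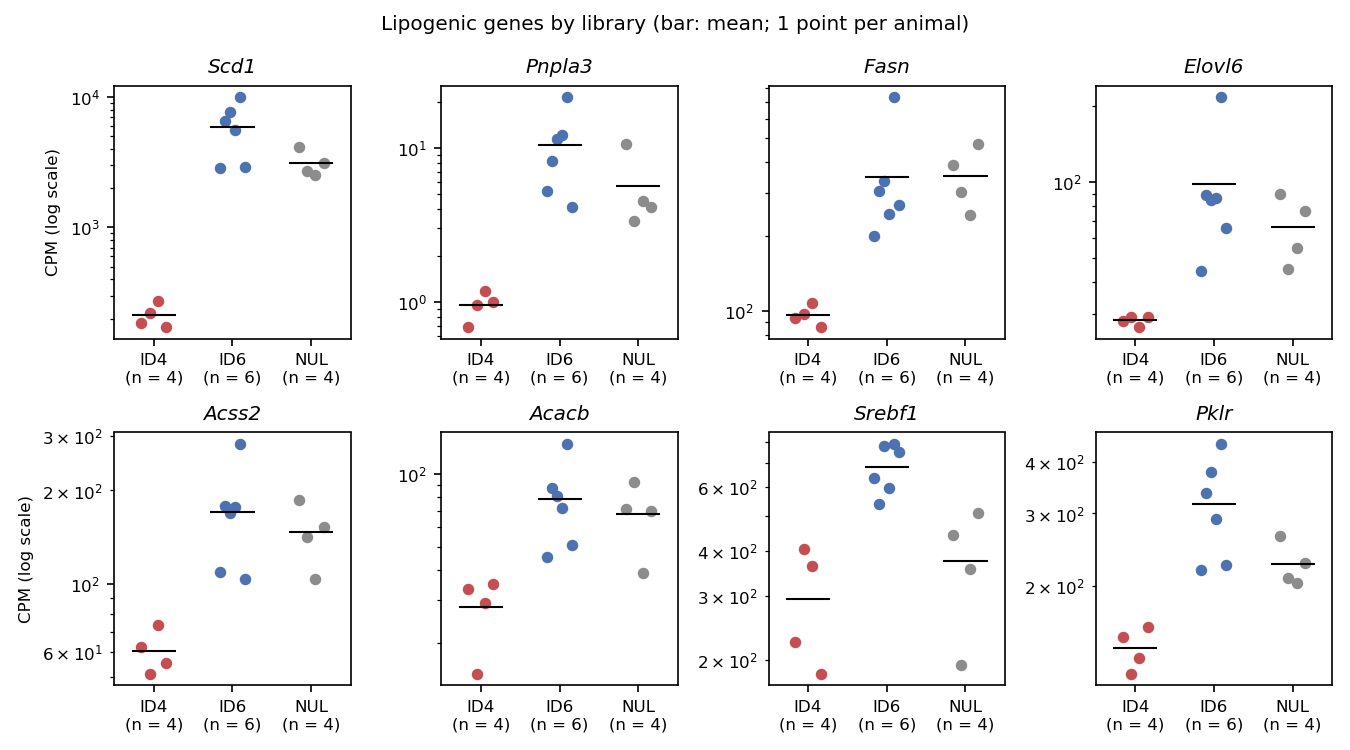
CPM of 8 genes of fatty acid synthesis and glycolysis in each library of ID4 (red, 4 animals), ID6 (blue, 6) and nulliparous mice (grey, 4), on log axes with 1 point per animal and a bar at the mean. In all 8 panels the ID6 points lie above the ID4 points without overlap, and Scd1 shows the widest gap, 172 to 272 against 2865 to 9926.

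The transcription factors of these genes were tested as well. Srebf1, which encodes SREBP-1, had 224.2, 405, 362 and 183 CPM at ID4 and 539.7 to 789 (median 694) at ID6, without overlap. The log2 fold change of Srebf1 was 1.22 (standard error 0.39, edgeR adjusted p = 0.0564), just short of a call, and it was called in 6 of 15 other settings, among them DESeq2 (adjusted p = 0.016), a fit of the ID4 and ID6 libraries alone (0.00846) and the scale of log2(TPM + 1) (0.0172). Srebf2, which encodes the factor of cholesterol synthesis, had a log2 fold change of 0.22 (edgeR adjusted p = 0.187), and Mlxipl, which encodes ChREBP, had 0.18 (edgeR adjusted p = 0.62). In the whole list of 20 lipogenic and sterol regulators 1 gene rose and 1 fell (10% called, against 8.53% over all genes). The median was -0.06, or 0.02 on either TPM scale. Counts called higher by edgeR were 0 with the number range as a covariate and 0 with animals numbered 200 and over only. At an unadjusted p under 0.05, 4 and 2 were higher in these settings.

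The regulator that rose was Insig1, whose protein holds SREBP in the endoplasmic reticulum and whose gene is itself an SREBP target. Its CPM was 51.3, 57.9, 111 and 59.6 at ID4 and 63.9 to 272 (median 208) at ID6. ID6_209, at 63.9, lay within the ID4 range, and the other 5 ID6 libraries lay above it. The log2 fold change of Insig1 was 1.47 (standard error 0.39, edgeR adjusted p = 0.0246). The call was lost without ID4_13 (adjusted p 0.0884), ID4_15 (0.0694), ID4_215 (0.0737) or ID6_230 (0.0525), and with the ID4 and ID6 libraries alone (0.0641). Its relative Insig2, whose liver transcript insulin represses, fell short of a call (-0.44, edgeR adjusted p = 0.0593), and was called without ID6_218 (0.0358), by DESeq2 (0.0235), with the ID4 and ID6 libraries alone (0.0272), with a stricter filter of at least 1 CPM in at least 4 libraries (0.046) and with a score of clock genes as a covariate (0.00213), with CPM of 283 to 346 at ID4 and 179.6 to 272 at ID6. The gene that fell was Ppargc1a, a coactivator of fasting genes, by 0.81 on the log2 scale (edgeR adjusted p = 0.0129).

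The promoter of Insig1 is shown because it was the regulator that rose. The 250 bases before its start in RefSeq (GRCm38.p6, chr5:28071162-28071411, plus strand) hold 1 E-box, CACGTG, in capitals, which begins at base 150 of the run shown.
Insig1: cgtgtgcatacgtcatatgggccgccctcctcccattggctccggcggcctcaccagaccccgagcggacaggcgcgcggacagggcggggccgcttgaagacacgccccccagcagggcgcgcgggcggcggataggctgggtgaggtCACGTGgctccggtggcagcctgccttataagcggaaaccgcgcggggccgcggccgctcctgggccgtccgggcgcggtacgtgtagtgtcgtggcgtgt
The reference genome is not that of BALB/c, so bases may differ in these mice. An E-box occurred in 8.09% of 27025 genes with a 300-base window (250 bases before to 50 after the start, both strands), and in 1 of the 13 rising fatty acid synthesis genes with a window (Slc25a1). The sterol response element occurred in 0.0999% of genes and in none of those 13 nor of the 5 rising cholesterol genes with a window. A match in letters is a description and not a measured site.

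Genes of cholesterol synthesis and uptake rose in part. Of 24 listed genes 23 were tested, 9 rose and none fell, with a median log2 fold change of 0.46. Summed CPM was 1425 to 1738 at ID4 and 1724 to 2157 at ID6, so the ranges met, and both lay below the 2882 to 3959 of nulliparous mice. The number called was 8 with the number range as a covariate and 5 with animals numbered 200 and over only.

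Fdps, farnesyl diphosphate synthase, went from 24.5, 21.6, 24.1 and 24.1 CPM to between 67.1 and 139 (median 90.3), a log2 fold change of 2.01 (standard error 0.27, edgeR adjusted p = 0.000173). The lowest ID6 library lay above all 4 ID4 libraries. Pmvk, phosphomevalonate kinase, rose by 1.34 (standard error 0.24, edgeR adjusted p = 0.00194), from 16.3 to 24.5 CPM to 33.9 to 64.6. Sqle, squalene epoxidase, was not called (0.95, edgeR adjusted p = 0.0787), but was by DESeq2 (0.0272), with the ID4 and ID6 libraries alone (0.0474), with the score of clock genes (0.04) and on log2(TPM + 0.1) (0.0301). Its ID6 mean of 8.01 ± 2.86 CPM (SD, n = 6) stood far under the nulliparous 50.2 ± 23.6 (n = 4). Aacs, which makes acetoacetyl-CoA for lipid synthesis from ketone bodies, rose by 1.76 (standard error 0.47, edgeR adjusted p = 0.0241), from 10.4 to 15.6 CPM to 20.8 to 80.6. The call of Aacs was lost without ID4_13 (adjusted p 0.0757), ID4_15 (0.0675), ID4_211 (0.0564), ID6_209 (0.0526) or ID6_230 (0.0554).

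Fatty acid oxidation and ketogenesis moved the other way. Of 27 genes tested 13 fell, 1 rose and 13 were not called, with a median log2 fold change of -0.29. Summed CPM was 11019 to 12620 at ID4 and 9028 to 10457 at ID6, without overlap, and 10801 to 12034 in nulliparous mice. With the number range as a covariate 11 fell, with animals numbered 200 and over only 10 fell, and on log2(TPM + 1) 6 fell.

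Cpt1a, which carries fatty acids into mitochondria and is inhibited by malonyl-CoA, had 417, 333, 336 and 348 CPM at ID4 and 169 to 280.3 (median 223) at ID6. All ID6 values lay below all ID4 values. Its log2 fold change was -0.68 (standard error 0.16, edgeR adjusted p = 0.00966). Acadm, medium-chain acyl-CoA dehydrogenase, fell by 0.48 (edgeR adjusted p = 0.00107) and Hadh, the short-chain hydroxyacyl-CoA dehydrogenase, fell by 0.47 (edgeR adjusted p = 0.000321). Each had ID4 and ID6 ranges that did not meet. Eci3, an enoyl-CoA isomerase at low level, fell by 1.48 (edgeR adjusted p = 0.00304). Its counts were not whole in 8 of 10 libraries. The exception was Ehhadh, the bifunctional enzyme of peroxisomal oxidation, which rose by 0.44 (edgeR adjusted p = 0.0146, and 0.0642 without ID4_13).

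Targets of PPAR alpha that respond to fasting did not move as a block. Of 24 genes, 2 rose (Pdk4 and Fabp1) and 1 fell (Mgll), or 12.5% against the 8.53% called over all genes. The median was -0.26. Calls of Fabp1 (0.41, edgeR adjusted p = 0.0441) and Mgll (-0.37, edgeR adjusted p = 0.0401) were each lost in 7 of 10 fits without 1 library, with adjusted p up to 0.183 (Fabp1, without ID4_15) and 0.154 (Mgll, without ID4_13). Without ID4_13, ID6_209, ID6_218 or ID6_230, with the covariate and with animals numbered 200 and over only, edgeR called 0 of the list, against 9 at an unadjusted p under 0.05 among all libraries and 7 with either number setting. Pdk4, which blocks pyruvate oxidation, had 7.54, 6.04, 8.16 and 8.05 CPM at ID4 and 9.42 to 17.8 at ID6, a log2 fold change of 0.92 (standard error 0.26, edgeR adjusted p = 0.0316). Pdk4 kept its call without ID6_201 or ID6_216 and lost it in the other 8 fits without 1 library, with adjusted p up to 0.0955 (without ID4_15). Ppara itself (-0.25, edgeR adjusted p = 0.351) and Fgf21, a fasting hormone of the liver (0.54, edgeR adjusted p = 0.567), were not called. Among 16 genes of glucose production 2 fell (12.5% called, against 8.53% over all genes), Pcx, pyruvate carboxylase (-0.44, edgeR adjusted p = 0.00217), and Fbp1, fructose bisphosphatase (-0.37, edgeR adjusted p = 0.0279). Fbp1 was not called without ID4_13 (adjusted p 0.061), ID4_211 (0.071), ID4_215 (0.0679), ID6_209 (0.0641) or ID6_232 (0.0656). Pck1, the rate-limiting PEP carboxykinase, had 1899, 3235, 2426 and 3389 CPM at ID4 and 492 to 2317 (median 1360) at ID6. The groups overlapped, and Pck1 was not called (-0.97, edgeR adjusted p = 0.0804). It was called without ID6_216 (0.0367) and by DESeq2 (0.0296). G6pc, glucose-6-phosphatase, had a log2 fold change of -0.22 (edgeR adjusted p = 0.79), which turned to 0.20 without ID4_215 and to between 0.00 and 0.01 on the TPM scales.

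Genes that break down amino acids fell in part. Of 36 genes of amino acid catabolism and the urea cycle 15 fell, none rose and 21 were not called, with a median log2 fold change of -0.27. Their summed CPM was 29823 to 34751 at ID4 and 21445 to 27556 at ID6. The ranges were separate, and the nulliparous one (23131 to 31038) lay across both. Counts of 14 with the covariate and 9 with animals numbered 200 and over only were found.

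Bhmt, which remakes methionine from homocysteine with betaine, had 4381, 2806, 4185 and 4921 CPM at ID4 and 729 to 1884 (median 1530) at ID6. It had the lowest log2 fold change of the list, -1.55 (standard error 0.25, edgeR adjusted p = 0.000673). Its counts were not whole in 10 of 10 libraries. Mat1a, which makes S-adenosylmethionine from methionine, went from 3359, 2963, 3852 and 3247 CPM to between 1874 and 2369 (median 2003), a change of -0.71 (standard error 0.11, edgeR adjusted p = 0.000227). Oat, ornithine aminotransferase, fell by 0.79 (standard error 0.13, edgeR adjusted p = 0.00065) and Slc7a2, a carrier of arginine and lysine, by 0.76 (standard error 0.14, edgeR adjusted p = 0.00192). Within the urea cycle, Asl, argininosuccinate lyase, fell by 0.73 (edgeR adjusted p = 0.0213). Its call was lost without ID4_211 (-0.67, adjusted p 0.0635), ID4_215 (-0.60, 0.0889) or ID6_209 (-0.68, 0.0526). Cps1, the first enzyme of the cycle, had a log2 fold change of 0.06 (edgeR adjusted p = 0.852).

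Drug metabolism and bile acid genes were tested as other hepatocyte functions. Of 38 xenobiotic P450 genes and their regulators 9 fell and 1 rose (26.3% called, against 8.53% over all genes). The counts were 8 and 0 with the number range as a covariate and 4 and 0 with animals numbered 200 and over only. Cyp3a16 fell by 0.92 (standard error 0.16, edgeR adjusted p = 0.000982), from 453 to 538 CPM to 149 to 309. Its near copy Cyp3a41a fell by 0.95 (edgeR adjusted p = 0.00917), with shared reads in 10 of 10 libraries. Por, which passes electrons to all microsomal P450 enzymes, fell by 0.62 (edgeR adjusted p = 0.00193). In bile acid synthesis and transport 3 of 26 genes fell and 1 rose (15.4% called, against 8.53% over all genes). Without ID4_15 5 fell, on log2(TPM + 1) 1 fell and 2 rose, and with animals numbered 200 and over only 1 fell and 0 rose. Cyp8b1, which makes cholic acid, fell by 0.71 (edgeR adjusted p = 0.0029), and Cyp27a1, of the alternative route, rose by 0.59 (edgeR adjusted p = 0.00149, and 0.119 with animals numbered 200 and over only). Cyp7a1, the rate-limiting enzyme of bile acid synthesis, was not called (0.92, edgeR adjusted p = 0.293); 2 ID6 libraries had 168 and 202 CPM, and the other 4 lay at 29.2 to 44.3, within or near the ID4 range of 34.1 to 57.9. Slc22a7, an organic anion transporter outside the lists, fell by 1.52 (standard error 0.24, edgeR adjusted p = 0.000636), from 80.1 to 102 CPM to 16.8 to 51.0. Nnmt, which methylates nicotinamide, fell by 1.69 (edgeR adjusted p = 0.014, and 0.0619 without ID4_211).

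Among secreted factors and growth hormone signalling 5 of 28 genes fell and 1 rose (21.4% called, against 8.53% over all genes). With the number range as a covariate 3 fell, and with animals numbered 200 and over only 2 fell. Fgl1, a hepatocyte secreted protein that also rises in the acute phase, had 1208, 1009, 1221 and 1042 CPM at ID4 and 397 to 674 (median 439) at ID6, a log2 fold change of -1.22 (standard error 0.30, edgeR adjusted p = 0.0148). Ahsg, fetuin-A, fell by 0.65 (edgeR adjusted p = 0.000441) and Igfbp4, a binding protein of insulin-like growth factors, by 0.60 (edgeR adjusted p = 0.00372). Igf1 fell by 0.33 (edgeR adjusted p = 0.0229), a call lost without ID4_13 (0.0851), ID4_15 (0.0618), ID4_215 (0.0607), ID6_209 (0.0637) or ID6_232 (0.0506) and with the ID4 and ID6 libraries alone (0.0593).

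**Figure D3:**
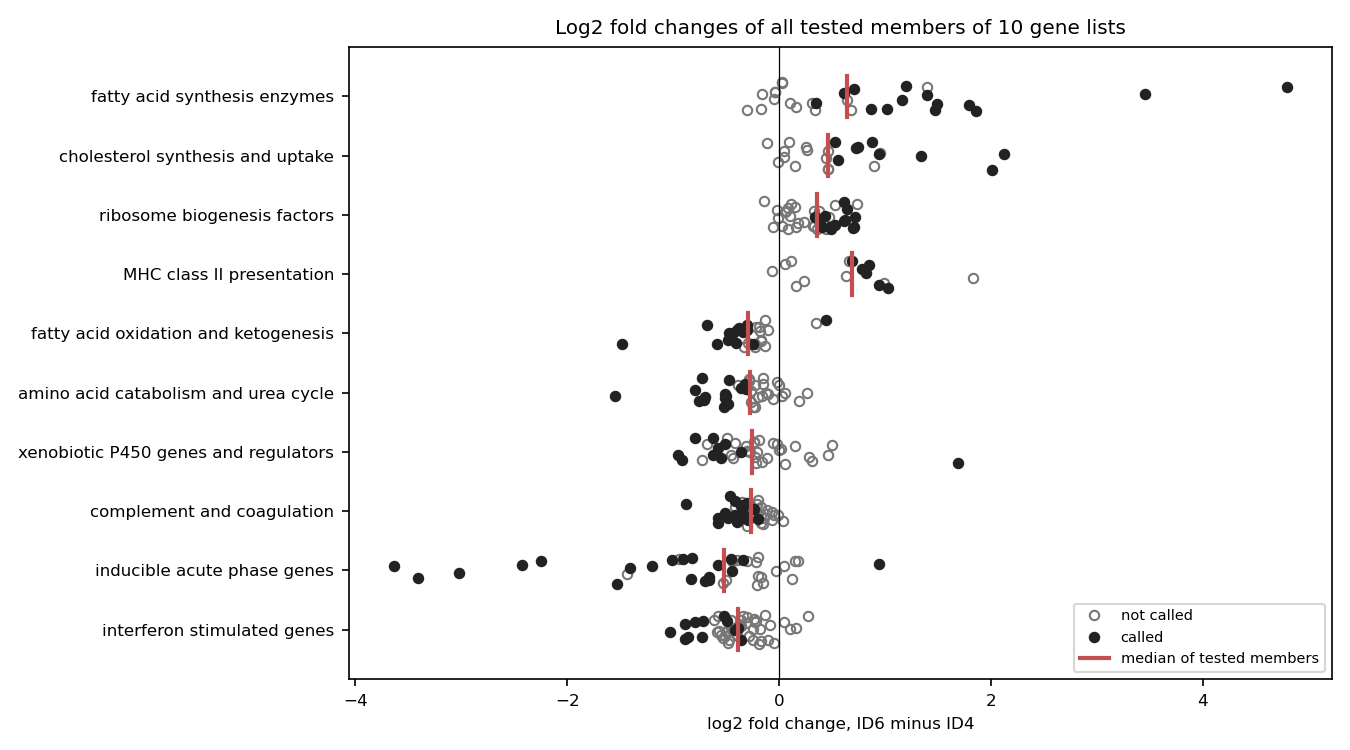
Log2 fold changes, ID6 minus ID4, of all tested members of 10 gene lists, with filled points for genes called by edgeR, open points for genes not called and a red bar at the list median. The medians run from 0.69 for MHC class II to -0.52 for acute phase genes, and the widest spreads are those of fatty acid synthesis (up to 4.80) and of acute phase genes (down to -3.64).

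Acute phase genes fell together with these. Of 38 genes tested 19 fell, 1 rose and 18 were not called, with a median log2 fold change of -0.52. Summed CPM was 40298 to 54940 at ID4 and 29272 to 46548 at ID6, with overlap, and 29147 to 40586 in nulliparous mice. The number that fell was 9 without ID4_13, 8 with the number range as a covariate, 4 with animals numbered 200 and over only and 8 with libraries sequenced in 2 runs only, an alternative chosen after the data had been seen.

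Saa1 (chr7:46740497-46742980), a serum amyloid A, had 1242, 187, 807 and 58.6 CPM at ID4 and 25.9 to 78.9 (median 43.7) at ID6. The 4 ID4 animals differed by more than 10 times, and ID4_215 lay within the ID6 range. The log2 fold change was -3.64 (standard error 0.72, edgeR adjusted p = 0.00387), and Saa1 was not called with animals numbered 200 and over only or with libraries sequenced in 2 runs only. Nulliparous mice had 9.08, 12.7, 15.6 and 88.5 CPM, so 3 of the 4 lay below every ID6 library and the other above. Saa2, its neighbour, had 822, 82.9, 373 and 37.1 CPM and then 21.0 to 56.8, a change of -3.41 (standard error 0.73, edgeR adjusted p = 0.0069, and 0.0538 without ID4_13). Orm2, an orosomucoid, followed the same animals, with 282, 165, 239.8 and 31.6 CPM at ID4 and 19.9 to 95.9 (median 28.1) at ID6. Its log2 fold change was -2.25 (edgeR adjusted p = 0.0136, with 0.0571 without ID4_13 and 0.0779 with the ID4 and ID6 libraries alone). In these 3 genes ID4_215 was the lowest ID4 library and ID4_13 the highest.

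Lcn2, lipocalin 2, which withholds iron carriers from bacteria, had 165, 74.1, 74.2 and 29.5 CPM at ID4 and 5.27 to 21.1 (median 9.28) at ID6. Here all ID6 libraries lay below all ID4 libraries, with a log2 fold change of -3.02 (standard error 0.63, edgeR adjusted p = 0.00589). Lcn2 was called in each fit without 1 library, and not with the number range as a covariate (0.0606), with animals numbered 200 and over only (0.103) or with libraries sequenced in 2 runs only (0.0749). Nulliparous mice had 4.96, 5.22, 8.24 and 38.5 CPM, of which the last lay within the ID4 range. The zinc-binding metallothioneins fell too. Mt2 went from 204, 110.1, 84.3 and 124 CPM to between 12.6 and 34.9, a change of -2.43 (standard error 0.65, edgeR adjusted p = 0.0252). It was not called without ID4_13 (0.0873) or ID6_232 (0.054). Mt1 changed by -1.53 (edgeR adjusted p = 0.0227), and was not called without ID4_13 (0.0918) or ID6_209 (0.0504). Haptoglobin, Hp, a more abundant acute phase protein, had 8596, 5459, 6746 and 4626 CPM at ID4 and 1567 to 5029 at ID6 and fell by 1.01 (edgeR adjusted p = 0.0204; 0.0933 without ID4_13, 0.050 without ID4_211 and 0.0519 with the ID4 and ID6 libraries alone). Lbp, which binds bacterial lipopolysaccharide, fell by 0.91 (standard error 0.18, edgeR adjusted p = 0.0029) and Serpina3n, a protease inhibitor, by 0.66 (standard error 0.10, edgeR adjusted p = 0.000338), both without overlap. Fga, a fibrinogen chain and also an acute phase protein, was not called (-0.03, edgeR adjusted p = 0.93).

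Hamp, which encodes hepcidin, the hormone that closes the iron exporter ferroportin, was the acute phase gene that rose. It had 517, 388, 678 and 592 CPM at ID4 and 910.4 to 1249 (median 1018) at ID6, separate in all libraries. The log2 fold change was 0.94 (standard error 0.18, edgeR adjusted p = 0.00187), and the ID6 mean of 1045 ± 129.5 CPM (SD, n = 6) was near the nulliparous 1108 ± 96.8 (n = 4). Its promoter is shown because it is known to answer both STAT3 and bone morphogenetic proteins, and it was the called gene of the list that rose, against 19 that fell. The 250 bases before its start in RefSeq (GRCm38.p6, chr7:30944030-30944279, minus strand) hold 1 match to the STAT site TTCNNNGAA, in capitals, which begins at base 154 of the run shown.
Hamp: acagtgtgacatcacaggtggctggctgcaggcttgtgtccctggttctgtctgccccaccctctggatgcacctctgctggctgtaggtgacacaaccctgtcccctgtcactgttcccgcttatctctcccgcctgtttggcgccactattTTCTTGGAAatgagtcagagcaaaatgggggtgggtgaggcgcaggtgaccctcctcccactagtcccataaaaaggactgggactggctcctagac
This site occurred in 9.55% of genes with a 300-base window, in 2 of the 16 falling acute phase genes with a window (Itih4 and Steap4) and in 3 of 12 falling complement and coagulation genes (C8a, F9 and Masp2). The NF-kB site, found in 0.174% of genes, was in none of the falling members of either list.

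**Figure D4:**
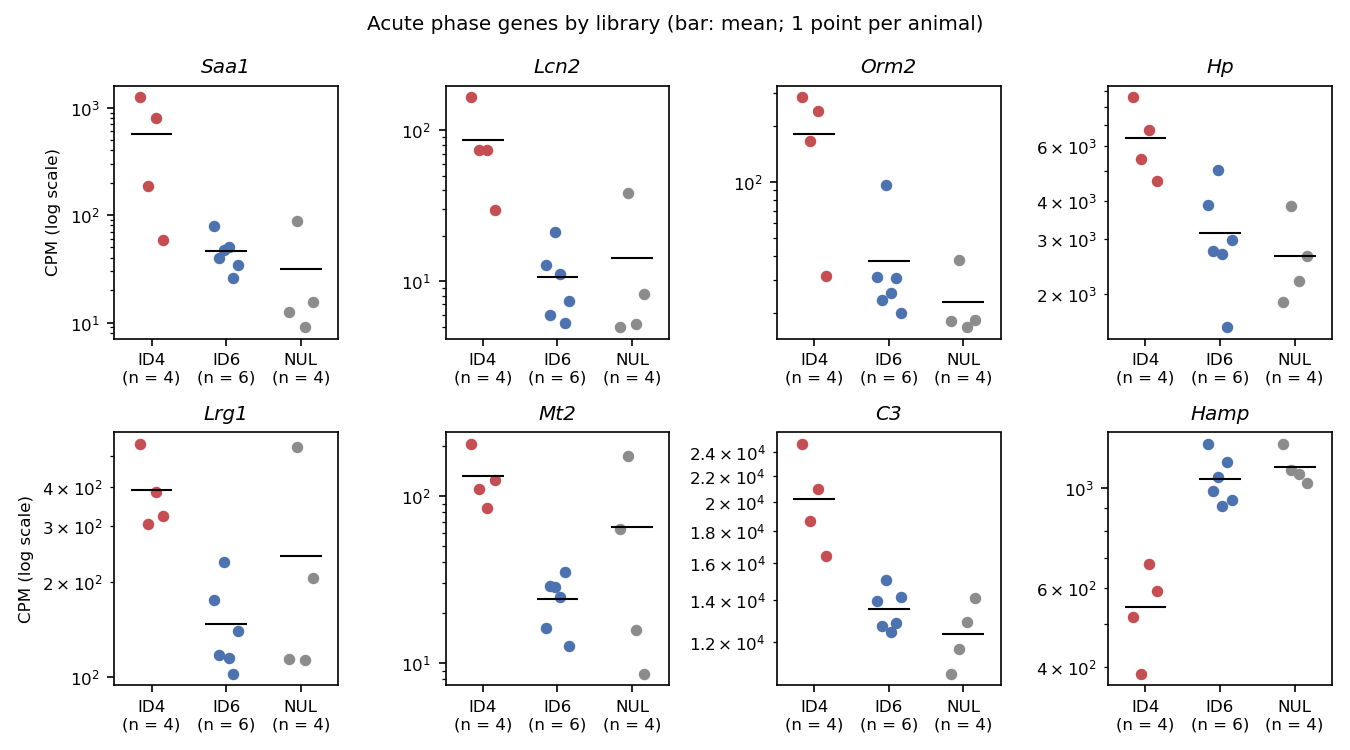
CPM of 8 genes of the acute phase and complement in each library of ID4 (red, 4 animals), ID6 (blue, 6) and nulliparous mice (grey, 4), on log axes with 1 point per animal and a bar at the mean. Saa1 is spread from 58.6 to 1242 at ID4, C3 is lower at ID6 in every library, and Hamp is higher at ID6 in every library.

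Complement and coagulation factors, which hepatocytes also secrete, fell in part as well. Of 38 genes 18 fell, none rose and 20 were not called, with a median log2 fold change of -0.26. Summed CPM was 45651 to 57346 at ID4, 34715 to 43668 at ID6 and 31991 to 37674 in nulliparous mice. With C3 included, the ID4 and ID6 ranges were separate. C3, the central complement component, had 24723, 18647, 20991 and 16436 CPM at ID4 and 12432 to 15044 (median 13398) at ID6. Its log2 fold change was -0.58 (standard error 0.12, edgeR adjusted p = 0.00285). C3 alone thus made up a large part of the sums and of their fall. CPM was separate for 8 of the 38 genes, against 8.25% of all genes. F11, coagulation factor XI, fell by 0.46 (edgeR adjusted p = 0.00119) and Plg, plasminogen, by 0.42 (edgeR adjusted p = 0.00812). The number that fell was 9 without ID4_13, 10 without ID4_211, 12 with the number range as a covariate, 3 with animals numbered 200 and over only, 4 with libraries sequenced in 2 runs only and 11 on log2(TPM + 1).

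Cytokine genes had few calls and mostly small negative changes. Of 56 cytokines, chemokines and targets of NF-kB or STAT3, 53 were tested, 3 fell (Ccl2, Stat3 and Tnfrsf1a) and none rose, near the share over all genes. The median log2 fold change was -0.20 and 7 of the 53 were positive. Summed CPM was 1100 to 1202 at ID4 and 956 to 1072 at ID6, without overlap, and 1004 to 1122 in nulliparous mice. At an unadjusted p under 0.05, 9 were lower and 1 was higher. The 3 calls became 1 without ID4_13 or ID4_15, and edgeR called 0 without ID6_209, with the number range as a covariate (4 lower at an unadjusted p under 0.05) or with animals numbered 200 and over only (3 lower). Calls were also 0 with the score of clock genes (6 lower) and with libraries sequenced in 2 runs only. Stat3, the factor that acts downstream of interleukin-6, had 135, 146, 151 and 125 CPM at ID4 and 93.9 to 118 at ID6, a log2 fold change of -0.40 (standard error 0.11, edgeR adjusted p = 0.0214). Its call was lost without ID4_15 (0.0595), ID4_211 (0.0705) or ID6_209 (0.0546). Socs3, a feedback target of STAT3, was not called (-0.53, edgeR adjusted p = 0.289). Neither was Tnf (-0.29, edgeR adjusted p = 0.766), at 0.102 to 0.611 CPM in all 10 libraries, nor Il1b (-0.08, edgeR adjusted p = 0.881). The signs of Tnf and Il1b turned under other settings. Il6 was too low to be tested.

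Interferon-stimulated genes, the antiviral response genes, fell in part. Of 53 tested 12 fell and none rose (22.6% called, against 8.53% over all genes), and the median was -0.39. Usp18, which limits interferon signalling, had 17.3, 20.1, 14.4 and 14.4 CPM at ID4 and 6.06 to 10.7 (median 9.09) at ID6, a change of -0.89 (standard error 0.21, edgeR adjusted p = 0.01). Ifit1 went from 23.2, 21.3, 14.8 and 18.0 CPM to between 6.71 and 11.5, a change of -1.03 (edgeR adjusted p = 0.0213). It was not called without ID4_13 (0.0773), ID4_15 (0.053) or ID6_209 (0.0526). Isg15, a ubiquitin-like member, was not called (-0.58, edgeR adjusted p = 0.134), except with the ID4 and ID6 libraries alone (0.0406). The list had 2 calls without ID4_13, ID4_15 or ID6_209, 7 without ID4_215, ID6_216 or ID6_232, 19 without ID6_218, 6 on log2(TPM + 1), and 0 falling members by edgeR with the number range as a covariate (12 lower at an unadjusted p under 0.05) or with animals numbered 200 and over only (11 lower).

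MHC class II genes, by which dendritic cells, B cells and macrophages show antigen, rose in part. Of 15 genes 6 rose, none fell and 9 were not called (40% called, against 8.53% over all genes). The median log2 fold change was 0.69. Summed CPM was 90.6, 143, 97.3 and 121 at ID4 and 141 to 261 at ID6, so ID4_15 reached the lowest ID6 library. H2-Eb1 had 8.33, 13.4, 9.07 and 11.7 CPM and then 13.9 to 30.0 (median 17.7), a change of 0.94 (standard error 0.23, edgeR adjusted p = 0.014, and 0.061 without ID4_13). Cd74, the invariant chain, rose by 0.82 (edgeR adjusted p = 0.0196), a call lost without ID4_13 (0.71, adjusted p 0.0811) or ID4_211 (0.74, 0.0654). edgeR called 0 without ID4_13 (7 at an unadjusted p under 0.05), 2 without ID4_211 or ID4_215 and 3 without ID6_201 or ID6_218. It called 0 with the number range as a covariate (8 at an unadjusted p under 0.05) or with animals numbered 200 and over only (7), and 1 with libraries sequenced in 2 runs only. In whole liver, a change in the number of cells of a type and a change in RNA per cell cannot be told apart.

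Few markers of immune cells were called. None of 41 genes of Kupffer cells and macrophages was called by edgeR (2 at an unadjusted p under 0.05) or DESeq2, and their summed CPM was 2652 to 2938 at ID4 and 2357 to 3084 at ID6. Clec4f, a Kupffer cell marker, had 265 to 277 CPM at ID4 and 201.5 to 324 at ID6 (-0.10, edgeR adjusted p = 0.681). Adgre1, which encodes F4/80, had -0.16 (edgeR adjusted p = 0.46). None of 14 tested neutrophil genes was called by edgeR (0 at an unadjusted p under 0.05) or DESeq2, with sums of 8.03 to 12.7 CPM and 6.16 to 10.97. For 27 tested T and NK cell genes the sums were 18.8 to 23.1 and 16.2 to 28.8, and edgeR called 0 (6 at an unadjusted p under 0.05) and DESeq2 called 1. Of 24 tested genes of B and plasma cells 1 fell, Sdc1, which hepatocytes express too (-0.63, edgeR adjusted p = 0.000441). The share called was 4.17%, against 8.53% over all genes. The summed CPM of that list was 471 to 557 at ID4 and 293 to 396 at ID6, without overlap, of which Sdc1 alone gave 439 to 530 and 257 to 351. Of 44 genes of collagen, matrix and stellate cells 1 fell (2.27% called), Tgfbi (-0.50, edgeR adjusted p = 0.0101).

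**Figure D5:**
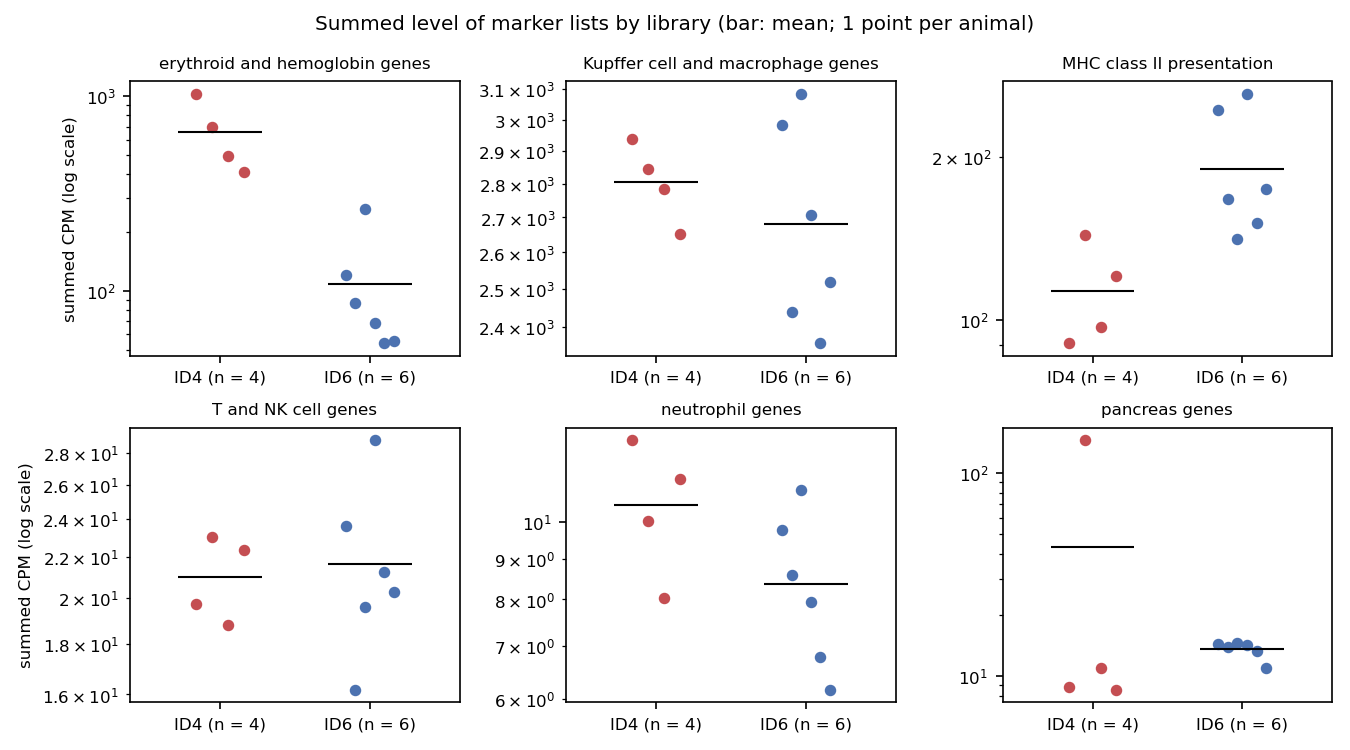
Summed CPM of 6 marker lists in each library of ID4 (red, 4 animals) and ID6 (blue, 6), on log axes with 1 point per animal and a bar at the mean. Erythroid genes are separate between the groups (407 to 1030 against 53.8 to 265), Kupffer cell, T and NK cell and neutrophil genes overlap, and 1 ID4 library stands out for pancreas genes at 144.

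Red cell transcripts moved with the comparison. All 6 called erythroid genes of 8 tested fell, among them the 4 adult hemoglobin genes. Hemoglobin summed to 1006, 686, 483 and 400.0 CPM in ID4_13, ID4_15, ID4_211 and ID4_215 and to between 50.6 and 258 at ID6, with ID6_216 the highest. The groups were separate, and nulliparous mice had 329 to 701, so it was ID6 that lay below them. Log2 fold changes ran from -2.94 (Hbb-bt, edgeR adjusted p = 0.000649) to -2.52 (Hbb-bs, edgeR adjusted p = 0.00106), with shared reads between these copies in 10 of 10 libraries. ID4_13, the highest ID4 library for hemoglobin, was also the highest for Saa1, Saa2 and Lcn2. The part of red cell transcripts in the other results was not tested. Pancreas genes summed to 144 CPM in ID4_15 and to 8.56 to 14.5 in the other 9 libraries. None of 20 was called by edgeR, although 12 were lower at an unadjusted p under 0.05, and DESeq2, which tested 1, called 0.

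Of 17 tested clock genes 1 rose and 1 fell, or 11.8% against the 8.53% called over all genes. DESeq2 called 6, and edgeR called 0 with the number range as a covariate (1 at an unadjusted p under 0.05) or with animals numbered 200 and over only (3). Tef, an output gene of the clock, had 42.7, 53.0, 44.0 and 32.2 CPM at ID4 and 19.2 to 27.3 (median 23.3) at ID6 and fell by 0.88 (standard error 0.19, edgeR adjusted p = 0.00613). The call of Tef was lost in 5 of 15 other settings, among them the covariate (0.0703) and both TPM scales (0.123 and 0.122). Arntl, a core activator, rose by 0.42 (edgeR adjusted p = 0.0454), a call kept in 3 of the 10 fits without 1 library (adjusted p up to 0.169, without ID4_15). Dbp, another output gene, was not called (-2.15, edgeR adjusted p = 0.0567), nor was Npas2 (0.97, edgeR adjusted p = 0.0509). Dbp was called by DESeq2 (0.0132), with the stricter filter (0.0439) and with the ID4 and ID6 libraries alone (0.0336). Npas2 was called in 7 of 15 other settings, among them DESeq2 (0.018) and log2(TPM + 1) (0.0261), and without ID4_211 (0.0452) or ID6_201 (0.0414). A clock score, the mean log2 CPM of 8 output genes minus that of 5 activating or opposing genes, was -2.27 to -1.06 at ID4 and -3.45 to -2.58 at ID6, without overlap. With this score as a covariate 1335 genes were called, 1036 of them among those called without it. Under that covariate 15 fatty acid synthesis genes rose, 16 acute phase genes fell, 16 genes of fatty acid oxidation fell and 1 interferon-stimulated gene fell.

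Factors of ribosome biogenesis rose in part. Of 40 genes 14 rose, none fell and 26 were not called, with a median log2 fold change of 0.36. Summed CPM was 1048 to 1089 at ID4 and 1099 to 1469 at ID6, just separate, and 1054 to 1300 in nulliparous mice. Gnl3, nucleostemin, had 14.4, 17.0, 13.9 and 16.5 CPM and then 20.2 to 37.7 (median 23.4), a change of 0.72 (standard error 0.16, edgeR adjusted p = 0.00568). Nop58, of the particles that methylate ribosomal RNA, rose by 0.71 (edgeR adjusted p = 0.00682), from 19.8 to 21.2 CPM to 25.7 to 48.3, and its partner Nop56 by 0.70 (edgeR adjusted p = 0.00316). Of the 14 promoters 4 held an E-box (Grwd1, Tsr1, Utp20 and Utp4), against 8.09% of all genes. The calls numbered 8 without ID4_13, 9 without ID4_15, ID4_211, ID4_215, ID6_209 or ID6_230, 7 with the covariate and 0 with animals numbered 200 and over only (18 at an unadjusted p under 0.05). Of the ribosomal protein genes themselves 2 of 77 tested rose (2.6%, against 3.89% over all genes). Of the 77 changes 68 were positive, and 13 were higher and 0 lower at an unadjusted p under 0.05. The number called higher was 13 without ID4_215 and 38 on log2(TPM + 1). By edgeR it was 0 without ID4_13 (3 higher at an unadjusted p under 0.05), with the covariate (1 higher) or with animals numbered 200 and over only (1 higher), and 1 without ID4_15, ID4_211, ID6_201 or ID6_209.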

How the data were processed

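Whole-liver libraries had been aligned with STAR 2.6.1a and quantified with RSEM 1.3.1 on mm10 (GRCm38), per the submitters' processing notes. The deposited expected counts, per the file headers, estimate the reads of each gene and were rounded here. The deposited TPM values, per the file headers, are scaled for gene length and depth, and RSEM's deposited effective length gave 1 alternative. Fractional counts, from reads shared between genes, made up at most 7.04% of a library's genes, and strand use is not given in the sources used here. Symbols and positions came from GENCODE M21 on GRCm38 by identifier (51633 of 51826), and promoter windows from RefSeq GRCm38.p6 (833 of 1089 tested list members).

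Counts were analysed in R 4.3.3 with edgeR 4.0.16: filterByExpr, which kept 16428 genes holding at least 99.978% of counts, TMM scaling and 1 robust quasi-likelihood fit of all 27 libraries, with the two-sided contrast ID6 minus ID4 and Benjamini-Hochberg adjustment over all genes. Genes were called at an adjusted p under 0.05. SE came from the fold change and its F statistic, and CPM is TMM-scaled. The biological coefficient of variation was 0.190. With 50 genes simulated at each fold, a fit of 16219 genes called 80% of 1.5-fold, 96% of 2-fold and 98% of 4-fold changes. The changed genes all had a mean log2 CPM of at least 1. Counts were drawn from the fitted model and its own dispersions, without any effect of number range or runs. The shares therefore do not hold for lower genes or for such effects. No pair of libraries within a group was close to sampling noise. The p-values rest on the spread within groups over all 27 libraries, and not on that of the ID4 and ID6 animals alone. Alternatives used limma 3.58.1 and DESeq2 1.42.0, other scalings and filters, title number range, a clock score, and each library left out.

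The members and lists were chosen with earlier results of these data known. Genes were named by 3 rules: up to 12 rising and 12 falling called genes with the largest changes, without overlap in CPM, whose mean log2 CPM reached 1 and whose symbol is no placeholder; up to 3 called genes each way per list; and a set named whatever its result, such as Srebf1, Pck1, Tnf and Clec4f. Chosen after their values were seen were Acaca, Me1, Acsl3, Acly, Sqle, Acadm, Hadh, Mat1a, Asl, Cps1, Hp, Orm2, Lbp, Serpina3n, Fga, Plg, F11, Isg15, Ccl2, Npas2, Por and the promoters of Insig1 and Hamp. Some genes that these rules name are not reported here.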

Additional observations from a re-analysis of the deposited data

Results flagged for a closer look

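In 260 groups of libraries, for each gene described, the highest or lowest library was checked for a gap to the rest that was large against the range of its group (Dixon's 95% limit), and 23 stood apart. Chance alone gives about 1 in 20. Values are CPM. ID6_216 stood apart upward 8 times: Alb 122413, Apoc2 131, Orm2 95.9, Tgfbi 40.1 and the hemoglobin genes Hba-a1 38.8, Hba-a2 64.5, Hbb-bs 143 and Hbb-bt 11.7. ID6_230 did so upward for Elovl6 at 216.4, Fasn at 730.4 and Mki67 at 6.10. ID6_209 was highest for the ribosome biogenesis genes Gnl3 at 37.7 and Nop56 at 45.5. Among ID4 libraries, ID4_15 was apart upward for Acaca at 73.6 and Trib3 at 8.69, and downward for Cyp8b1 at 272, Fdps at 21.6 and Serpina3n at 794. ID4_211 was high for Insig1 at 111 and low for Hadh at 365. ID4_13 was low for Ppargc1a at 5.11 and high for Sqle at 5.94, and ID4_215 was low for Slc22a7 at 80.1. The causes were not tested.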

How the results depend on the processing

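No paired analysis was possible because no title number occurs in both groups. The 1401 calls became 669 with the title number range as a covariate, 278 with animals numbered 200 and over only, 459 at an adjusted p under 0.01 and 822 with libraries sequenced in 2 runs only, where fewer samples or a stricter threshold entered except in the first. Without 1 library there were 738 (without ID4_13) to 1469 (without ID6_218) calls, and 40.8% (without ID6_230) to 46.7% (without ID6_216 or ID6_218) of them were higher. The share of 45.6% higher became 28.8% with animals numbered 200 and over only, 82.2% on log2(TPM + 1), 82.5% on log2(TPM + 0.1) and 35.3% at an adjusted p under 0.01, and the cause was not tested. RLE scaling gave 1382 calls, upper quartile scaling 1407, DESeq2 1826, no filter 1049, the stricter filter 1546, the 2 groups alone 1229, the clock score 1335 and the length offset 1052. Among the genes named, signs turned only for ones not called. Without 1 library, G6pc ran from -0.37 to 0.20, Tnf from -0.58 to 0.34, Il1b from -0.22 to 0.11, Cps1 from -0.02 to 0.18 and Fga from -0.11 to 0.01. Tnf was 0.12 with the covariate and 0.44 with animals numbered 200 and over only. Il1b was 0.09 with animals numbered 200 and over only, 0.01 on both TPM scales, 0.11 without ID4_15, 0.04 without ID6_209 and 0.01 without ID6_230. Adgre1 was 0.04 with animals numbered 200 and over only. G6pc was 0.00 on log2(TPM + 1), 0.01 on log2(TPM + 0.1) and 0.20 without ID4_215. Fga was 0.09 on both TPM scales, 0.01 without ID6_218 or ID6_232 and 0.07 with libraries sequenced in 2 runs only, and Cps1 was -0.02 without ID4_215. With the number range as a covariate, calls were lost for Pnpla3, Fasn, Elovl6, Aacs, Acss2, Acacb, Insig1, Me1, Ehhadh, Cpt1a, Pdk4, Fabp1, Mgll, Fbp1, Fgl1, Igf1, Lcn2, Mt1, Mt2, Saa2, Hp, Orm2, Stat3, Tnfrsf1a, H2-Eb1, Cd74, Ifit1, Usp18, Tgfbi, Ccnd1, Arntl and Tef among others. On both TPM scales they were lost for Pdk4, Mgll, Fbp1, Stat3, Tnfrsf1a, Sesn2, Igf1, Asl and Tef among others. Depth was not varied.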

Other observations

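Of 50 cell cycle genes 3 rose and 2 fell, 10% of the list against 8.53% called over all genes. The number that fell was 0 without ID4_211 or ID6_209 and on log2(TPM + 1), and 1 without ID4_13, ID4_15, ID6_201, ID6_216 or ID6_232, against 13 lower at an unadjusted p under 0.05 among all libraries. With animals numbered 200 and over only edgeR called 0 as higher (3 higher at an unadjusted p under 0.05) and 1 as lower. Ccnd1, cyclin D1, which carries growth signals into the cycle, had 13.3, 19.3, 15.3 and 14.4 CPM at ID4 and 26.98 to 55.8 (median 33.3) at ID6, without overlap, a log2 fold change of 1.31 (standard error 0.31, edgeR adjusted p = 0.0125). Cdk2 rose by 0.50 (edgeR adjusted p = 0.0029). Mki67, which marks dividing cells, was not called (-0.56, edgeR adjusted p = 0.479), with ID6_230 at 6.10 CPM and the other 5 ID6 libraries at 1.69 to 3.14.

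Genes of the endoplasmic reticulum were mostly slightly higher, with few calls. Of 41 tested 32 had a positive log2 fold change, the median was 0.19, and 3 rose and 2 fell (12.2% called, against 8.53% over all genes). At an unadjusted p under 0.05, 9 were higher and 2 lower. The 3 rising genes became 0 without ID4_13 (7 higher at an unadjusted p under 0.05) or with the title number range as a covariate (9 higher), 1 without ID4_215 or ID6_209, 7 with the clock score and 10 on log2(TPM + 1). With animals numbered 200 and over only, edgeR called 0 (7 higher and 2 lower at an unadjusted p under 0.05). In this list the master chaperone Hspa5 was not called (0.27, edgeR adjusted p = 0.575). Trib3, a pseudokinase of the amino acid and stress response, fell by 0.78 (standard error 0.17, edgeR adjusted p = 0.00589), from 5.96, 8.69, 6.07 and 6.01 CPM to between 3.26 and 4.82. Sesn2, a stress-induced inhibitor of mTORC1, fell by 0.32 (edgeR adjusted p = 0.0115). In both genes all ID6 libraries lay below all ID4 libraries. With animals numbered 200 and over only neither was called (edgeR adjusted p = 0.128 for Trib3 and 0.104 for Sesn2). Scarb1, the hepatic receptor for high-density lipoprotein, was among 6 of 37 genes of lipid droplets and lipoproteins that fell, by 0.60 (edgeR adjusted p = 0.00147), against 3 without ID4_13, ID6_209 or ID6_230 and 2 without ID4_215 or on log2(TPM + 1).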
